A study of Mus musculus with 6 samples.

Results

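The genes described here encode subunits of the transcription factor NF-kB, though not all of them, and proteins that hold it in check. They were taken by gene symbol from the probe annotation of the array and were Rel, Rela, Relb, Nfkb2, Nfkbia, Nfkbib, Nfkbie, Nfkbiz, Bcl3 and Tnfaip3, 10 of 18193 measured genes. All 10 were measured, by 20 probe sets that are assigned to 1 gene only: 4 genes had 1 probe set and 6 had several. A probe set is a group of short oligonucleotides on an Affymetrix array that together measure 1 transcript.

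The RNA was from cultured bone marrow cells of C57BL/6 mice and was measured on 6 arrays, 2 in each of 3 groups. All 3 groups were grown with GM-CSF, a growth factor of myeloid cells. GM-MPP are multipotent progenitors grown with stem cell cytokines plus GM-CSF. The GM-DC group holds dendritic cells, which present antigen to T cells, and these were derived from GM-MPP with GM-CSF. The GM-TNFa-DC group was derived likewise with GM-CSF and TNFa, an inflammatory cytokine. The sources used here give no ages, doses or times. They do not tell whether both arrays of a group stem from different animals or cultures, so a p-value here measures only how far these samples spread, and that spread may be technical. The number of arrays limits the precision.

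NF-kB is a family of dimeric transcription factors that carry a shared DNA-binding and dimerisation domain, the Rel homology domain. In resting cells the inhibitors of the IkB family mask the dimers in the cytoplasm. A signal such as TNFa bound to its receptor activates the IkB kinase complex, the inhibitors are degraded, and the dimers enter the nucleus. A slower branch of the pathway processes the p100 product of Nfkb2 to p52 and releases dimers of p52 with the Relb product. Several genes of the system are themselves known targets of NF-kB, which makes feedback loops, and in dendritic cells the pathway is known for its part in maturation.

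Promoters with a match to the NF-kB motif are shown because several genes of the system are known targets of NF-kB. Any link between a match and the changes described below was not tested. RefSeq promoter sequence of build GRCm38.p6 was at hand for 8 of the 10 genes, and the 250 bases before each start were searched. The NF-kB consensus is a motif of 10 bases, and a stricter form was spelled GGGNNTTTCC. Both were searched on both strands. The 2 forms overlap, and in these genes each match to the stricter form was also a match to the consensus. At least 1 match to the consensus was found for 5 of these 8 genes, against 8.23% of the 27025 genes in the promoter table. The stricter form was found for 4 of the 8, against 1.65% of genes. The 8 were picked as genes of this pathway, so these shares are no independent test. Genes with several starts in the table, such as Nfkb2 and Tnfaip3, had several windows searched. The 5 sequences that follow run 5′ to 3′ on the gene's strand, and capitals mark the bases inside a match.
Nfkbia, chr12:55492648-55492897, minus strand: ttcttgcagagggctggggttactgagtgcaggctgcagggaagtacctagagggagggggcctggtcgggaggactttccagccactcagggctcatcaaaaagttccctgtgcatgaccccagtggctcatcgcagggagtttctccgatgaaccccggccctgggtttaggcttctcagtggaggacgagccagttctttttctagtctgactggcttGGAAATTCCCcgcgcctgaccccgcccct
Nfkbie, chr17:45555450-45555699, plus strand: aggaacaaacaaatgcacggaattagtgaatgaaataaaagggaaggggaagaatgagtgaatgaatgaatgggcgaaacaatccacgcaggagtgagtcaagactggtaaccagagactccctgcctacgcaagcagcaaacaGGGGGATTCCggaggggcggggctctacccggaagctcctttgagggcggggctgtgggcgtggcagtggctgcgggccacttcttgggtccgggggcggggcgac
Nfkb2, chr19:46304487-46304736, plus strand: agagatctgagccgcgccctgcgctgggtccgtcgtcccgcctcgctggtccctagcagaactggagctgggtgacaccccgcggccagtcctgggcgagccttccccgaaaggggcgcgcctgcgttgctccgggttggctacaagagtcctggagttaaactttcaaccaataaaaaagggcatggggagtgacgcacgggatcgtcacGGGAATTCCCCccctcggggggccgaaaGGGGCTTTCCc
Rel, chr11:23770970-23771219, minus strand: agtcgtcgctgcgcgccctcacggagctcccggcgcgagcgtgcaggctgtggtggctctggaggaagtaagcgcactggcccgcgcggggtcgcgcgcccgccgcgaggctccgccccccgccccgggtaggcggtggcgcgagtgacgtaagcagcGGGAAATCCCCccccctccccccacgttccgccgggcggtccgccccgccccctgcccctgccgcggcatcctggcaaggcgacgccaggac
Tnfaip3, chr10:19015411-19015660, minus strand: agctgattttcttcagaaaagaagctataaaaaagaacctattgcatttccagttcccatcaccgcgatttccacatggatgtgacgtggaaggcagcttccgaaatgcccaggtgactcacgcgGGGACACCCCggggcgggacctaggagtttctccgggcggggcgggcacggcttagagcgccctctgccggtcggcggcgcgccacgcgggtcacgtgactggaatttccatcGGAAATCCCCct

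The match closest to a start lay 2 to 11 bases before it in the first Nfkb2 promoter, where a second stretch of overlapping matches lay 29 to 39 bases before it. In Tnfaip3 a match lay 3 to 12 bases and another 116 to 125 bases before the start. In Nfkbia it lay 20 to 29 bases before the start, in Rel 82 to 92 and in Nfkbie 97 to 106. Of the 2 other Nfkb2 starts in the table, each had 1 match, and that of the third start, GGGACTTTCC, lay 216 to 225 bases before it. The windows of Bcl3, Nfkbib, Rela and the second start of Tnfaip3 held no match. A match is a description of the letters and not evidence of binding.

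Values are log2 expression levels as deposited, so that a difference of 1 is a 2-fold difference, and they are given per array in the order number 1 and number 2, the sample numbers in the titles. The medians of the arrays were between 4.67 and 4.77, and values around them are near the arrays' background, where differences are compressed. Differences were tested with limma across all 18193 genes and called at a Benjamini-Hochberg adjusted p under 0.05. Errors after ± are standard errors of the log2 change. Markers went with the labels of the cells only in part. Of 14 dendritic cell markers 11 rose and 1 (Flt3, which progenitors share) fell in GM-DC against GM-MPP. Of 11 progenitor markers 10 fell there. The other, Kit, was at 7.09 and 7.22 in GM-MPP and at 9.0 and 5.65 in GM-DC. In GM-MPP the neutrophil markers had the higher medians, 13.57 and 13.64, beside 9.82 and 9.51 for the progenitor markers. Of 7 mast cell and basophil markers 4 lay above the upper quartile of both GM-MPP arrays.

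The dendritic cell arrays differed by their number. Same-numbered GM-DC and GM-TNFa-DC arrays correlated at r = 0.988 and 0.990 over the probe sets, above the 0.970 and 0.961 between the arrays of either group. Of the dendritic cell markers 13 of 14 were higher on number 1 in GM-DC and 14 of 14 in GM-TNFa-DC. Their levels, summed on the linear scale, were 57673 and 20502 in GM-DC, 79664 and 26925 in GM-TNFa-DC and 902 and 1192 in GM-MPP. The 8 measured macrophage and monocyte markers summed to 33125 and 37294, 26214 and 41302, and 9538 and 16609 in the same groups. The 6 neutrophil markers summed to 16097 and 14188, 5200 and 12057, and 67990 and 74307. Of these 6, however, 5 were higher on number 1 in GM-DC, 4 in GM-TNFa-DC and 1 in GM-MPP. Mmp8 went the other way in both dendritic cell groups and was high on number 2, at 11.27 and 13.39 in GM-DC and at 9.15 and 13.08 in GM-TNFa-DC. In GM-TNFa-DC S100a8 (10.81 and 11.38) was also higher on number 2. No marker is at 0 on such arrays. The part of these differences in cell makeup in the results below was not tested, and in such bulk RNA fewer cells of a type and less RNA per cell cannot be told apart. For most genes the changes on the 2 array numbers are given beside the pooled one.

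**Figure D1:**
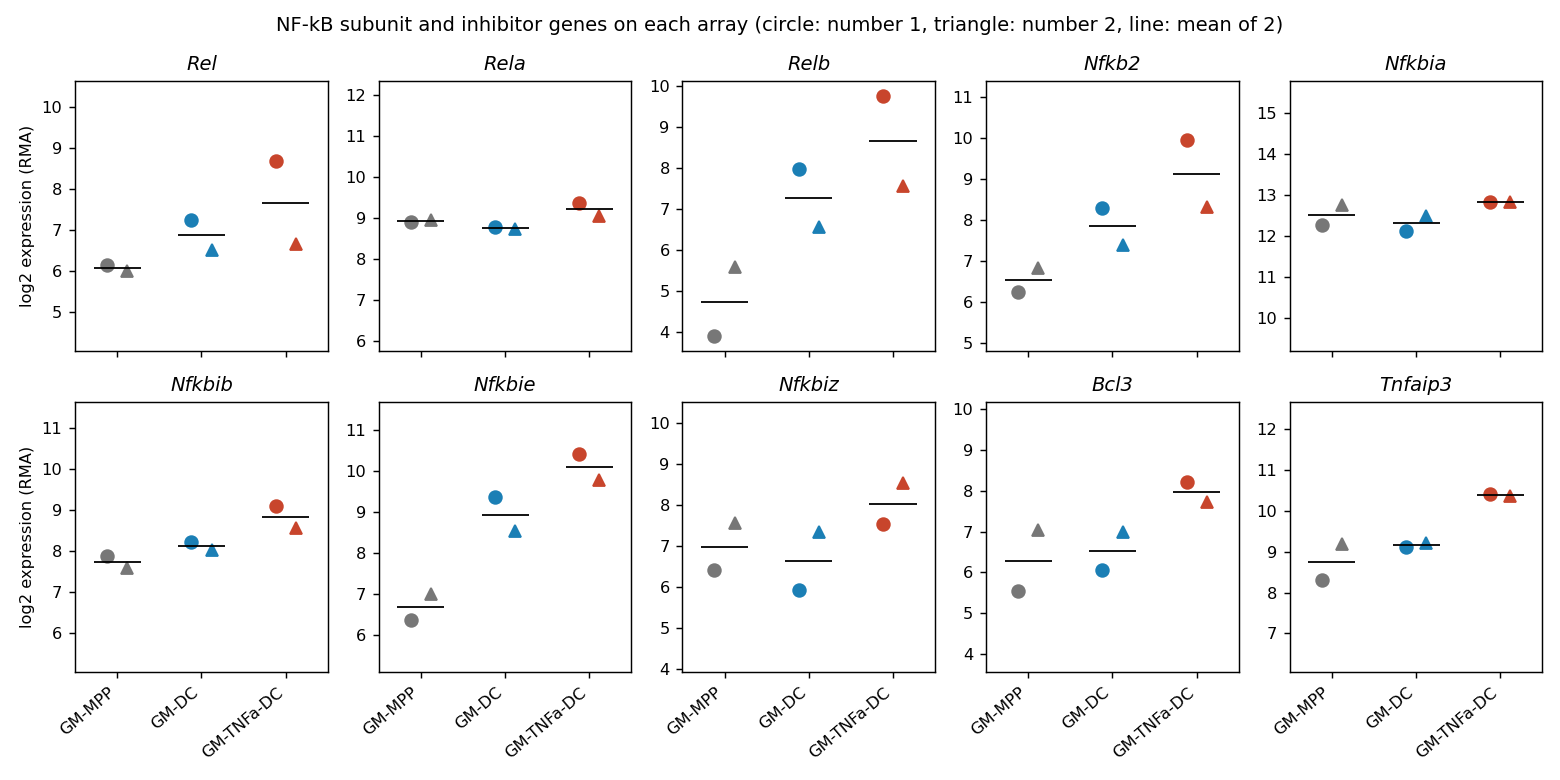
Log2 expression (vertical axis, each panel spanning the same 6.6 log2 units) of the 10 genes on each array of the 3 groups, with a circle for number 1, a triangle for number 2 and a line at the mean. Relb spans 5.86 log2 units over the arrays and Rela 0.65.

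Dendritic cells and progenitors were compared first. In GM-DC 1 of the 10 genes passed the test, the inhibitor gene Nfkbie, which rose, and none fell. Of all genes 4.5% passed, 1.87% higher and 2.63% lower. At an unadjusted p under 0.05, 2 of the 10 were higher (Relb and Nfkbie) and none lower, against 9.06% and 12.5% of all genes, 21.6% in all. Both GM-DC arrays lay above both GM-MPP arrays for 5 of the 10, against 28.3% of all genes, and below them for 1 of the 10, Rela, against 27% of all genes. The mean was higher for 7 of the 10, against 53.1% of all genes, and 6 were higher on both numbers, against 35.5%. At least a 2-fold higher mean was found for 3 of the 10 (Relb, Nfkb2 and Nfkbie), against 6.05% of all genes. The median log2 change of the 10 was 0.40, beside 0.02 over all genes. It was 0.66 on number 1 and 0.22 on number 2.

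Among the subunits, Relb, the partner of p52 in the slower branch of the pathway, had the widest difference. Its values were 3.90 and 5.59 in GM-MPP and 7.98 and 6.56 in GM-DC. The groups did not overlap, but the low GM-MPP value lies below the median of its array, and the order of the 2 numbers was opposite in the 2 groups. The change was 2.53 ± 0.94, or 4.08 on number 1 and 0.97 on number 2, and it did not pass (limma adjusted p = 0.203). Without 1 array it was between 1.68 and 3.37.

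Nfkb2, which encodes p100 and its product p52, was at 6.24 and 6.82 in GM-MPP and at 8.30 and 7.40 in GM-DC. Both GM-DC arrays were the higher ones, number 1 more so. The change of 1.32 ± 0.61 (2.07 and 0.58 on the numbers) did not pass either (limma adjusted p = 0.284). The second probe set of Nfkb2 differed in size, with 0.70 ± 0.46.

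Rel encodes c-Rel, a subunit known for its role in lymphoid and antigen-presenting cells. Its values were 6.15 and 5.99 in GM-MPP and 7.24 and 6.51 in GM-DC, with no overlap and a change of 0.80 ± 0.67 (limma adjusted p = 0.546). Rela, which encodes p65, the activating subunit found in most cell types, had 8.90 and 8.94 in GM-MPP and 8.78 and 8.72 in GM-DC. Both GM-DC arrays were just below both GM-MPP arrays. The change was -0.18 ± 0.21, with a 95% interval from -0.69 to 0.34 (limma adjusted p = 0.680).

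The cytosolic inhibitors parted. Nfkbie, which encodes IkB-epsilon, was at 6.37 and 7.0 in GM-MPP and at 9.36 and 8.53 in GM-DC. It rose by 2.26 ± 0.41, a 4.78-fold difference, with 2.99 on number 1 and 1.53 on number 2 (limma adjusted p = 0.0443). The call was narrow: it was lost without any single one of the 6 arrays, with adjusted p from 0.0521 to 0.267 in limma, and with all probe sets tested (0.0508). The second probe set of Nfkbie lay in the same direction, with 1.67 ± 0.38 (limma adjusted p = 0.0858 over all probe sets).

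Nfkbia, which encodes IkB-alpha, the inhibitor that NF-kB quickly renews, was at 12.27 and 12.76 in GM-MPP and at 12.13 and 12.50 in GM-DC. The arrays overlapped, and the change was -0.20 ± 0.23 (limma adjusted p = 0.661). That probe set is near the bright end of the arrays. All 5 probe sets of Nfkbia had a mean below that in GM-MPP. The widest difference was in a probe set with 10.92 and 11.80 in GM-MPP and 9.91 and 10.80 in GM-DC (-1.0 ± 0.40, limma adjusted p = 0.261 over all probe sets). Nfkbib, which encodes IkB-beta, was at 7.86 and 7.59 in GM-MPP and at 8.21 and 8.01 in GM-DC, a change of 0.39 ± 0.27 (limma adjusted p = 0.469).

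Nfkbiz and Bcl3 encode IkB proteins that act in the nucleus, where they bind NF-kB dimers and can promote as well as restrain transcription. Nfkbiz was at 6.41 and 7.55 in GM-MPP and at 5.91 and 7.35 in GM-DC, and Bcl3 was at 5.54 and 7.03 in GM-MPP and at 6.06 and 6.98 in GM-DC. In both genes the number-2 array was the higher one within each of these groups, by 0.92 to 1.5, and that gap was wider than the difference between the groups. The changes were -0.35 ± 0.65 for Nfkbiz and 0.23 ± 0.57 for Bcl3 (limma adjusted p = 0.804 and 0.858). The other probe sets of Nfkbiz gave -1.47 ± 0.93 and -0.55 ± 0.62, and the mean of its probe sets gave -0.79.

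Tnfaip3 encodes A20, an enzyme that edits ubiquitin chains and shuts off signalling from the TNF receptor. Its values were 8.31 and 9.18 in GM-MPP and 9.12 and 9.20 in GM-DC. Only the GM-MPP array of number 1 stood below the others, and the change was 0.41 ± 0.32 (limma adjusted p = 0.515).

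**Figure D2:**
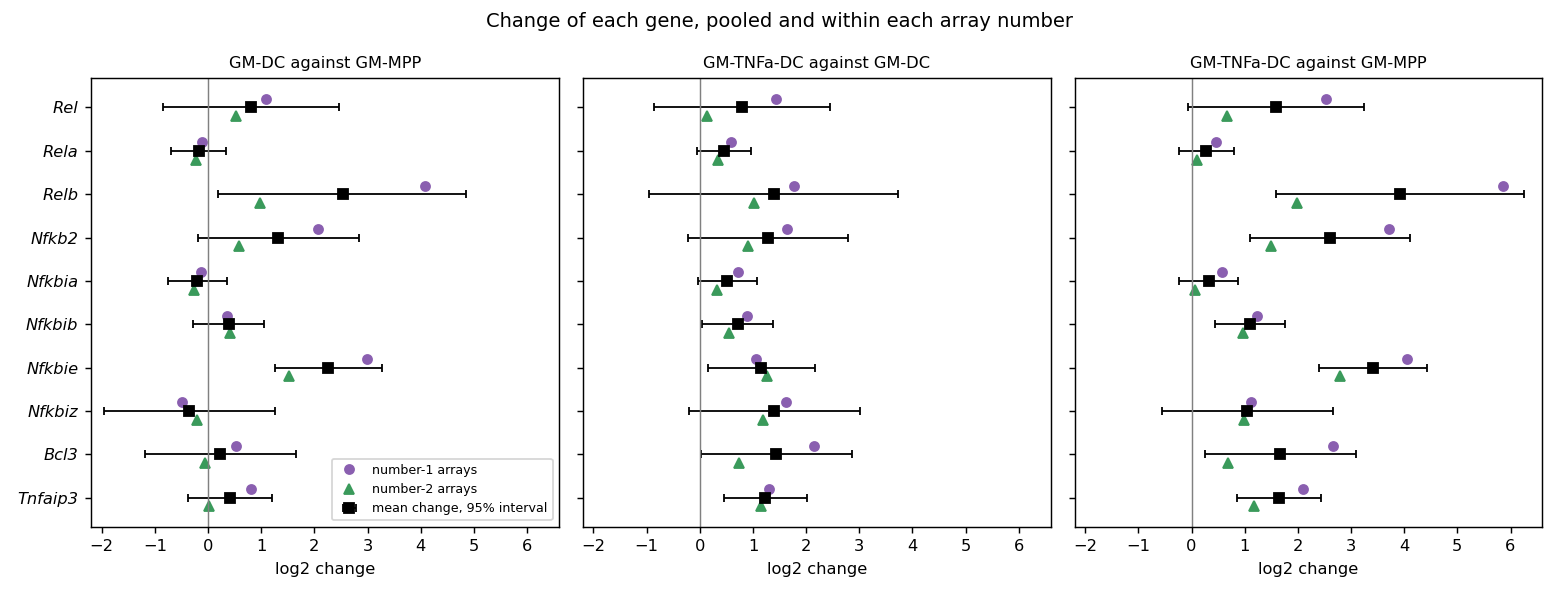
Log2 change (horizontal axis) of each gene in the 3 comparisons, with a square and a 95% interval for the pooled change, a circle for the number-1 arrays and a triangle for the number-2 arrays. With TNFa all 10 squares lie to the right of 0, between 0.46 and 1.44.

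The second comparison, GM-TNFa-DC against GM-DC, addresses what went with adding TNFa. All 10 genes had a higher mean with TNFa, against 53% of all genes, and all 10 were higher on both numbers, against 30.9% of all genes. No gene passed, 0 of the 10 and 0% of all 18193 (limma, lowest adjusted p = 1). At an unadjusted p under 0.05, 4 of the 10 were higher and none lower, against 1.48% and 0.77% of all genes, 2.25% in all. Both GM-TNFa-DC arrays lay above both GM-DC arrays for 8 of the 10, against 14.9% of all genes, the other two being Rel and Relb. At least a 2-fold difference in the mean was found for 6 of the 10, against 0.379% of all genes. The median log2 change of the 10 was 1.19, beside 0.01 over all genes, with 1.36 on number 1 and 0.83 on number 2. The 10 genes were chosen with results of this comparison known, so these counts describe them and are no independent test. The test did not pair the arrays by number, so its standard errors and intervals include the gap between the numbers. With the number in the model on these 4 arrays, the standard error of Relb was 0.22 in place of 0.94. No gene passed there either, but that fit leaves 1 residual degree of freedom.

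The genes of the nuclear IkB proteins are given first. Bcl3 was at 6.06 and 6.98 in GM-DC and at 8.20 and 7.72 in GM-TNFa-DC. Its change of 1.44 ± 0.57 was the 16th highest of all 18193 genes, with 2.14 on number 1 and 0.74 on number 2. Nfkbiz was at 5.91 and 7.35 in GM-DC and at 7.53 and 8.53 in GM-TNFa-DC, a change of 1.40 ± 0.65 that ranked 17th, with 1.62 and 1.18 on the numbers. The groups of Nfkbiz were 0.18 apart at their nearest, since the number-2 array of GM-DC was high. Its 3 probe sets disagreed in size: the other two gave 1.03 ± 0.93 and 0.06 ± 0.62, and the mean of the 3 gave 0.83, below the changes of Relb, Nfkbie, Tnfaip3 and Nfkb2 taken the same way (1.39, 1.31, 1.05 and 0.97). Without GM-DC 1 the change of Nfkbiz was 0.68, and without GM-DC 2 it was 2.12.

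The subunits of the slower branch came next. Relb was at 7.98 and 6.56 in GM-DC and at 9.76 and 7.57 in GM-TNFa-DC. Within each number it was higher with TNFa, by 1.78 and 1.01, but the groups overlapped because the 2 numbers lay 1.42 and 2.19 apart within them. The pooled change was 1.39 ± 0.94 with a 95% interval from -0.95 to 3.73, and it ranked 19th. It was 0.30 without GM-TNFa-DC 1, 0.68 without GM-DC 2 and 2.49 without GM-TNFa-DC 2.

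Nfkb2 was at 8.30 and 7.40 in GM-DC and at 9.95 and 8.32 in GM-TNFa-DC. The nearest arrays of the groups were 0.02 apart, and the change of 1.28 ± 0.61 (1.64 and 0.91 on the numbers) ranked 30th. It was 0.46 without GM-TNFa-DC 1, 0.83 without GM-DC 2 and 2.09 without GM-TNFa-DC 2. The second probe set of Nfkb2 was at 7.82 and 7.12 in GM-DC and at 8.72 and 7.55 in GM-TNFa-DC, where the groups overlapped, and gave 0.66 ± 0.46.

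Tnfaip3 had the smallest gaps between the arrays of a group, summed over both groups. It was at 9.12 and 9.20 in GM-DC and at 10.41 and 10.36 in GM-TNFa-DC. The groups were thus over 1 log2 unit apart while the arrays within them differed by 0.08 and 0.05. The change was 1.23 ± 0.32, a 2.34-fold difference, with 1.30 and 1.16 on the numbers. Its unadjusted p of 0.00904 in limma was the lowest of the 10 genes, and its adjusted p was 1. Without any single array it was between 1.19 and 1.27. The second probe set of Tnfaip3 gave 0.88 ± 0.32.

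Of the cytosolic inhibitors, Nfkbie was at 9.36 and 8.53 in GM-DC and at 10.42 and 9.78 in GM-TNFa-DC, a change of 1.16 ± 0.41 (1.06 and 1.26 on the numbers), or 0.74 to 1.57 without 1 array, the lowest without GM-DC 2. It was the only one of the 10 with the larger change on number 2. The other 9 were higher on both numbers with the larger change on number 1, a pattern found in 16.5% of all genes. Nfkbib was at 8.21 and 8.01 in GM-DC and at 9.09 and 8.55 in GM-TNFa-DC, a change of 0.71 ± 0.27, or 0.44 without GM-TNFa-DC 1. Its dim second probe set was between 3.97 and 4.27 on all 6 arrays and gave 0.02 ± 0.16.

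Nfkbia was at 12.13 and 12.50 in GM-DC and at 12.84 and 12.83 in GM-TNFa-DC, a change of 0.52 ± 0.23, or 0.34 without GM-DC 1. The other 4 probe sets of Nfkbia also had a higher mean with TNFa, from 0.38 to 1.38. The highest was the probe set with the widest difference before, at 9.91 and 10.80 in GM-DC and at 11.79 and 11.69 with TNFa (1.38 ± 0.40, unadjusted p = 0.0133 and adjusted p = 1 in limma over all probe sets). The mean of the 5 probe sets gave 0.81.

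Rel and Rela completed the set. Rel was at 7.24 and 6.51 in GM-DC and at 8.67 and 6.65 in GM-TNFa-DC, where number 1 alone stood clear. Its change was 1.43 on number 1 and 0.14 on number 2, pooled 0.79 ± 0.67. Without the GM-TNFa-DC array of number 1 the pooled change of Rel was -0.23. Rela was at 8.78 and 8.72 in GM-DC and at 9.36 and 9.05 in GM-TNFa-DC, a change of 0.46 ± 0.21 with a 95% interval from -0.05 to 0.97, or 0.31 without GM-TNFa-DC 1. It was the smallest of the 10 and still ranked 589th of 18193.

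**Figure D3:**
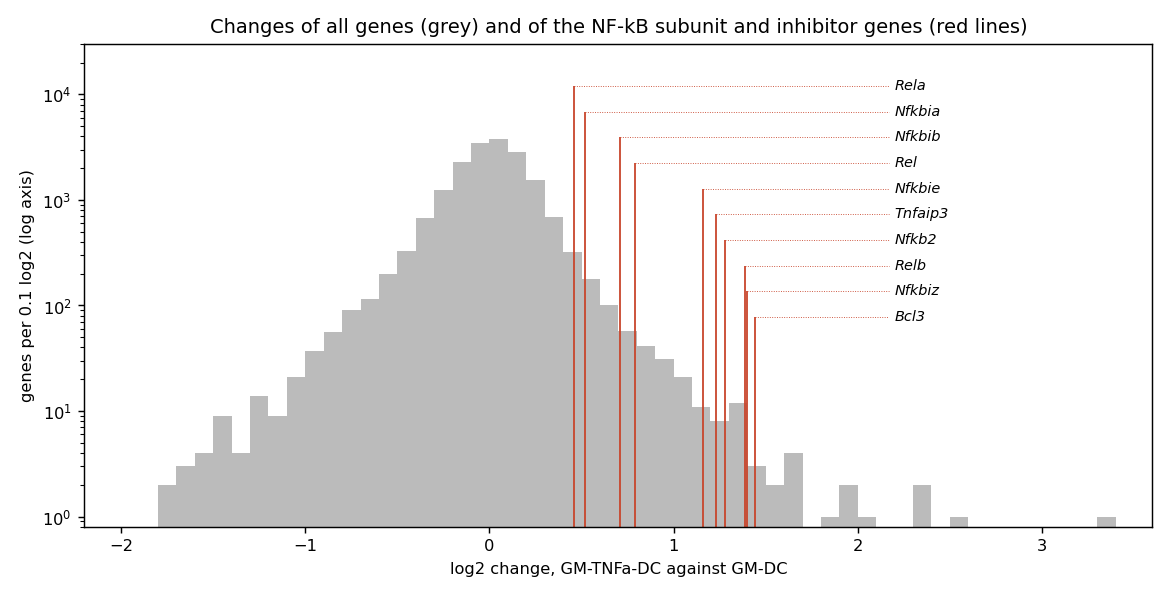
Number of genes (vertical log axis) by log2 change in GM-TNFa-DC against GM-DC (horizontal axis, bins of 0.1), with all 18193 genes in grey and a red line for each of the 10 genes. The red lines stand between 0.46 (Rela) and 1.44 (Bcl3), in the upper tail of the grey distribution.

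Over the 20 probe sets of these genes all 20 had a higher mean with TNFa, against 52.7% of all 45037 probe sets. Of the 20, 14 did not overlap and lay above, against 15% of all probe sets, and 10 were at least 2-fold higher, against 0.289%. The median was 0.95, beside 0.01. Against GM-MPP, GM-DC had 11 of the 20 higher, against 53.5% of all probe sets, and 9 lower, with a median of 0.16. The 20 probe sets are repeats of 10 genes, 5 of them of Nfkbia, and are not independent. These comparisons share the GM-DC arrays, so a low GM-DC array lowers one change and raises the other.

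**Figure D4:**
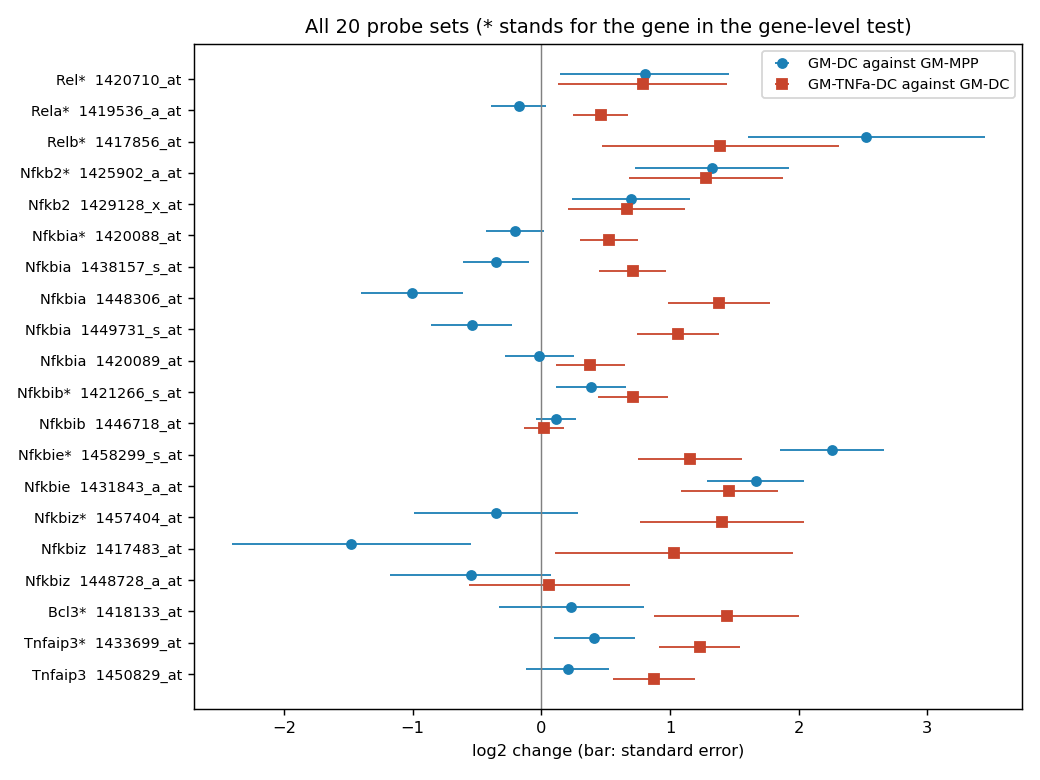
Log2 change (horizontal axis, bars are standard errors) of each of the 20 probe sets, with circles for GM-DC against GM-MPP and squares for GM-TNFa-DC against GM-DC. An asterisk marks the probe set that stands for the gene, and the squares lie between 0.02 and 1.46.

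Against the progenitors, 2 of the 10 genes rose in GM-TNFa-DC and none fell. Of all genes 7.03% passed, 2.77% higher and 4.26% lower. At an unadjusted p under 0.05, 6 of the 10 were higher and none lower, against 11.5% and 13.6% of all genes, 25.1% in all. All 10 had a higher mean, against 56% of all genes, and 9 of the 10 did not overlap and lay above, against 31.6%. At least a 2-fold higher mean was found for 8 of the 10, against 6.57% of all genes. The median log2 change was 1.62, beside 0.05 over all genes, with 2.31 on number 1 and 0.97 on number 2. All 10 were higher on both numbers, against 39.1% of all genes. All 10 were higher on both numbers with the larger change on number 1, a joint pattern found in 20.3% of all genes. This comparison shares its arrays with both others.

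Nfkbie rose 10.7-fold in GM-TNFa-DC, by 3.42 ± 0.41 (limma adjusted p = 0.0146), from 6.37 and 7.0 to 10.42 and 9.78. Its second probe set also passed over all probe sets (3.13 ± 0.38, limma adjusted p = 0.0174). The call was lost without GM-MPP 1 (adjusted p = 0.119), GM-MPP 2 (0.0793) or GM-TNFa-DC 1 (0.0597).

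Tnfaip3 rose 3.12-fold, by 1.64 ± 0.32 (limma adjusted p = 0.0421), from 8.31 and 9.18 to 10.41 and 10.36. That call was lost without any single one of the 6 arrays, with adjusted p from 0.0672 to 0.155 in limma, and its second probe set did not pass (1.08 ± 0.32, adjusted p = 0.130 over all probe sets).

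The other genes did not pass, among them Relb, Nfkb2 and Bcl3, whose differences and standard errors were both larger than those of Tnfaip3. Relb differed by 3.92 ± 0.94, with 5.86 on number 1 and 1.98 on number 2 (limma adjusted p = 0.0704). The value on number 1 is set against 3.90 in GM-MPP, near background, and without 1 array the pooled difference of Relb was between 2.82 (GM-TNFa-DC 1 left out) and 5.01 (GM-TNFa-DC 2 left out). Nfkb2 differed by 2.60 ± 0.61, with 3.71 and 1.5 (adjusted p = 0.0661), and passed without GM-TNFa-DC 2 (3.42, adjusted p = 0.0419) but was 1.79 without GM-TNFa-DC 1 (adjusted p = 0.136). The second probe set of Nfkb2 differed by 1.36 ± 0.46 (adjusted p = 0.167 over all probe sets). Rel differed by 1.59 ± 0.67 (adjusted p = 0.214) and likewise passed without GM-TNFa-DC 2 (adjusted p = 0.0442). Nfkbib differed by 1.10 ± 0.27 (adjusted p = 0.0717) and Bcl3 by 1.67 ± 0.57 (adjusted p = 0.147).

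Nfkbiz differed by 1.05 ± 0.65 (limma adjusted p = 0.372), but its other 2 probe sets were lower than in GM-MPP, with -0.44 ± 0.93 and -0.49 ± 0.62, and the mean of the 3 gave 0.038. The smallest differences were those of Nfkbia (0.32 ± 0.23, adjusted p = 0.427) and Rela (0.28 ± 0.21, adjusted p = 0.438).

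The numbers of the arrays split the members differently in each group. In GM-TNFa-DC 9 of the 10 were higher on number 1, Nfkbiz being the other, where 44.2% of all genes were. In GM-MPP only Rel and Nfkbib were higher on number 1, so 8 of the 10 were higher on number 2, where 49.7% of all genes were higher on number 1. In GM-DC it was 6 and 4. A gap of at least 2-fold between the numbers was found in 4 of the 10 in GM-TNFa-DC, against 8.95% of all genes, in 2 in GM-DC, against 7.31%, and in 3 in GM-MPP, against 2.18%. Rela, Relb, Nfkb2 and Nfkbie were higher on number 1 in both dendritic cell groups and on number 2 in GM-MPP, Rela by 0.31 or less in each. Nfkbiz was higher on number 2 in all 3 groups, by 1.14, 1.44 and 1.0 in progenitors, GM-DC and GM-TNFa-DC.

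Over the 6 arrays the subunit genes Relb and Nfkb2 had the most alike patterns among the 8 members that spanned at least 1 log2 unit (Pearson r = 0.982). Nfkbie was close to both (0.961 and 0.947), Tnfaip3 and Bcl3 were alike (0.935), and Nfkbiz stood apart from Rel (0.003). These correlations describe 6 arrays that share groups and numbers. Among all 5517 genes that spanned as much, 3 were taken for each of the 8 members by the highest Pearson r over the 6 arrays.

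The genes most alike to Relb were H2-Oa, a gene of the MHC class II system (0.998), Mdp1 (0.997) and Bri3 (0.995). H2-Oa was at 5.91 and 6.75 in GM-MPP, 8.12 and 7.48 in GM-DC and 9.12 and 7.88 in GM-TNFa-DC, so it had the order of the arrays seen in Relb. For Nfkb2 they were Myo1c (0.995), Gucd1 (0.995) and Ptchd1 (0.993), and for Rel the heat shock factor Hsf2 (0.999), Naxe (0.997) and Kcp (0.995). For Nfkbib they were St3gal3 (0.990), Cited4 (0.982) and Ptdss2 (0.980). Nfkbie was most like Klrb1b (0.995), Alpk2 (0.991) and the adhesion molecule Icam1 (0.990). Nfkbiz was most like Gm5082 (0.969), Bmp10 (0.965) and Clec4e, a receptor for microbial and damage signals (0.962). Bcl3 was most like the inflammatory caspase Casp4 (0.969), Dgka (0.968) and Birc3, an inhibitor of cell death (0.943). Tnfaip3 was most like Gatd1 (0.979), the transcription factor Ets2 (0.975) and Rnf19b (0.967). Several of the genes named here were at or near background. Among them were Hsf2 (3.64 to 5.07 over the arrays), Ptchd1 (4.40 to 5.69), Gm5082 (2.67 to 3.71) and Bmp10 (4.64 to 5.70). Rela and Nfkbia spanned 0.65 and 0.71 log2 units and were not searched.

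Other genes of the pathway were counted by lists. Of 8 measured kinases and adaptors that release NF-kB, none passed in any comparison in limma. At an unadjusted p under 0.05 there were 0 in GM-DC against GM-MPP, 0 with TNFa against GM-DC and 1 (Map3k14, higher) in GM-TNFa-DC against GM-MPP, where 21.6%, 2.25% and 25.1% of all genes were. Their median log2 change was 0.14 in GM-DC against GM-MPP, 0.18 in GM-TNFa-DC against GM-DC and 0.32 in GM-TNFa-DC against GM-MPP. Map3k14 encodes NIK, the kinase of the slower branch, and was at 5.42 and 5.96 in GM-MPP, 7.0 and 6.42 in GM-DC and 7.93 and 6.46 in GM-TNFa-DC. Its differences from GM-MPP were 1.03 ± 0.53 and 1.51 ± 0.53 (limma adjusted p = 0.333 and 0.154), larger on number 1 as for Relb and Nfkb2. Of the others without overlap, Tbk1, a kinase related to the IkB kinases, differed from GM-MPP by 0.39 ± 0.23 in GM-DC and 0.55 ± 0.23 in GM-TNFa-DC. Ikbkg, the regulatory subunit of the IkB kinase complex, differed by 0.76 ± 0.38 in GM-TNFa-DC. The adaptor Tab1 was 0.07 ± 0.16 above GM-MPP in GM-DC and 0.11 ± 0.16 above GM-DC with TNFa.

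Of 10 other measured brakes on the pathway, Tnip1, which encodes a partner of A20, rose in GM-TNFa-DC against GM-MPP (1.59 ± 0.28, limma adjusted p = 0.0364), 1 of 10 against 2.77% of all genes. Tnip1 was at 8.89 and 9.55 in GM-MPP, 9.82 and 10.15 in GM-DC and 10.72 and 10.90 in GM-TNFa-DC, with no overlap between any groups. None of these brakes passed in the other two comparisons in limma, where 2 (GM-DC against GM-MPP) and 1 (with TNFa against GM-DC) were higher at an unadjusted p under 0.05, against 9.06% and 1.48% of all genes. Nfkbid, another nuclear IkB gene, was at 6.63 and 7.23 in GM-DC and at 7.54 and 7.67 in GM-TNFa-DC (0.68 ± 0.31, adjusted p = 1). Tnip1 itself was 0.82 ± 0.28 above GM-DC there, and Cyld, which encodes a deubiquitinase, 0.07 ± 0.21. In GM-DC against GM-MPP, Tnip2, another partner of A20, differed by 1.14 ± 0.26 (adjusted p = 0.0749), Tnip1 by 0.76 ± 0.28 and the deubiquitinase gene Otud7b by -0.47 ± 0.36. The medians of the list were 0.11 in GM-DC against GM-MPP, 0.08 with TNFa and 0.27 in GM-TNFa-DC against GM-MPP.

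Known target genes of NF-kB were counted last. Of 29 measured, 8 rose and none fell in GM-DC against GM-MPP, where 1.87% of all genes rose and 2.63% fell. In GM-TNFa-DC against GM-MPP 10 rose and none fell, where 2.77% of all genes rose and 4.26% fell. The medians were 1.52 and 2.09, beside 0.02 and 0.05 over all genes. Of the 29, 3 (Ccr7, Ccl22 and Cd83) are also among the dendritic cell markers above, and all 3 rose in both comparisons. Of the other 26, 5 and 7 rose, with medians of 1.19 and 2.01. By the size of the change, the genes named were the chemokine Ccl5 (6.98 ± 0.71 and 7.54 ± 0.71), the homing receptor Ccr7 (6.76 ± 0.70 and 7.74 ± 0.70) and the chemokine Ccl22 (5.44 ± 0.53 and 6.80 ± 0.53), with limma adjusted p from 0.00539 to 0.0125. In GM-MPP Ccl5 was at 4.70 and 4.95, Ccr7 at 2.85 and 3.44 and Ccl22 at 4.45 and 5.25, at or near background, so these sizes are no exact folds and give no order. With TNFa against GM-DC none of the 29 passed in limma, and 4 were higher and none lower at an unadjusted p under 0.05, against 1.48% and 0.77% of all genes. A higher mean was found for 27 of them, against 53% of all genes, and the median was 0.73, beside 0.01 over all genes. The lists, like the 10 genes, are described by these counts only. Of the 29, 7 lay above without overlap between those groups, against 14.9% of all genes, and 1 lay below. The widest of these differences were those of Ccl22 (1.36 ± 0.53), Icam1 (1.21 ± 0.44) and Birc3 (1.13 ± 0.36). Il1b (2.31), Cd40 (1.40), Cxcl2 (1.34) and Ptgs2 (1.26) had larger changes than Icam1, but their groups overlapped. Birc3 was at 9.61 and 10.05 in GM-DC and at 11.05 and 10.87 in GM-TNFa-DC.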

How the data were processed

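Gene expression was measured on 6 Affymetrix arrays, 2 per group, and the sources used here give 1 table of 45101 probe sets. Per the submitters' processing notes the authors made the values with RMA, and per the labels with Bioconductor. RMA corrects background, quantile-normalizes arrays and summarises probes. That the deposited values are on the log2 scale was taken from their range. The version of RMA is not given in the sources used here, nor is the set of arrays it was run on. Quantile normalization removes overall differences in brightness.

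Symbols came from the platform annotation, updated through Entrez identifiers to RefSeq (GRCm38.p6): 34945 probe sets had 1 symbol, 932 several, 9160 none listed, and 64 were controls. Where a gene had several such probe sets, the one with the highest mean over the 6 arrays stood for it. The model was limma 3.58.1 in R 4.3.3 (lmFit, eBayes with trend, 3 groups sharing 1 spread, 3 residual degrees of freedom). P-values were adjusted by Benjamini-Hochberg over 18193 genes, or over 45037 probe sets for single probe sets. The model was tested on simulated data with independent noise on each array. The simulation held no shared deviation of same-numbered arrays, so it does not cover that feature of the real arrays. Python 3.11.15 and matplotlib 3.10.9 made tables and plots. All 10 genes were named whatever their result. Of each pathway list, up to 3 called members with the largest change were named, or, with none called, up to 3 without overlap, both by size of change, and the 3 genes most alike to each member. The members and lists were chosen with earlier results of these data known, and the tests and alternatives were written down after those results.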

Additional observations from a re-analysis of the deposited data

How the results depend on the processing

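Each comparison was repeated under 10 other settings and without each of the 6 arrays. In GM-TNFa-DC against GM-DC, 0 of the 10 genes and 0 of all genes passed under each of these. In GM-DC against GM-MPP, 0 of the 10 genes passed, in place of 1, with probe sets averaged per gene, with all probe sets tested, with only the 4 arrays compared, with the replicate block on those 4 arrays, and without any one array (0 to 0). In GM-TNFa-DC against GM-MPP, in place of 2 of the 10, 1 passed with the mean of probe sets, 1 with only the 4 arrays compared, 5 with the replicate block, 0 with the block on the 4 arrays, and 0 to 3 without 1 array. Besides Nfkbie and Tnfaip3, the block on 6 arrays brought Nfkb2, Nfkbib and Nfkbiz past the threshold there (adjusted p = 0.0481, 0.0321 and 0.0389). A second quantile normalization brought Nfkbib past it (adjusted p = 0.0461).

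Over all genes, calls in GM-DC against GM-MPP went from 819 to 1476 with the replicate block, to 276 with the block on 4 arrays (1 residual degree of freedom), and to 50 to 717 without 1 array. In GM-TNFa-DC against GM-MPP they went from 1279 to 749 with only the 4 arrays compared, 2060 with the block, 260 with the block on 4 arrays, and 91 to 760 without 1 array. With 1 array left out, the lone array of its group takes its spread from the other groups. The shared numbers do not by themselves pair the samples: deviations of same-numbered arrays correlated at 0.806 between GM-DC and GM-TNFa-DC, but at 0.105 and 0.072 with GM-MPP. In GM-TNFa-DC against GM-DC the ± values above thus include the gap between the numbers. With the block on those 4 arrays the standard errors of all 10 genes were smaller. That of Relb was 0.22 in place of 0.94, of Nfkb2 0.21 in place of 0.61 and of Nfkbiz 0.17 in place of 0.65. Their changes stayed the same, and none passed (limma adjusted p = 0.560 for these genes). With 1 residual degree of freedom that fit can hardly call a gene, so the missing calls decide nothing. The block changed no other call among the 10 genes.

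Directions of uncalled genes turned only when an array was left out. In GM-DC against GM-MPP, Bcl3 was then at -0.52 to 0.98 (-0.52 without GM-MPP 1, -0.23 without GM-DC 2), Tnfaip3 at -0.022 to 0.85 (lowest without GM-MPP 1), Nfkbia at -0.45 to 0.044 (highest without GM-MPP 2) and Nfkbiz at -1.07 to 0.37 (0.22 without GM-MPP 2, 0.37 without GM-DC 1). In GM-TNFa-DC against GM-DC, Rel was at -0.23 to 1.80, the lowest without GM-TNFa-DC 1. The cause of these shifts was not tested. Median centring and a second quantile normalization turned the direction of none of the 10 genes in any comparison.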
